A study of Rattus norvegicus with 28 samples.

Results

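Wide accessible regions of the rat dorsal root ganglion (DRG) were taken as all consensus regions on chromosomes 1 to 20 with an end minus start of at least 1500 bp. This rule found 1585 regions among 55844 autosomal regions and 56810 regions in all. It used the coordinates alone and no coverage value. The coordinates themselves come from regions called on these same libraries, so width and coverage are not independent. A further 33 regions of that width lay on chromosome X and were not counted. The assay was ATAC-seq, in which a transposase inserts sequencing adaptors into open chromatin, and each value is the log2 normalised coverage of 1 region in 1 library. Each library came from the ipsilateral L4 to L6 DRGs of 1 male Sprague-Dawley rat aged 12 weeks. The groups were 6 rats at 14 days after a constriction injury of the sciatic nerve (CCI), 6 rats at 48 h after complete Freund's adjuvant (CFA) was injected into the hind paw, and 3 naïve rats. No sham-operated or vehicle-injected group was used here, so surgery or injection as such cannot be told apart from the pain model.

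Accessible chromatin is DNA that nucleosomes leave free for regulatory proteins. Most open sites are short, and a wide region forms where several open sites run together, as at promoters of active genes and in dense groups of enhancers, or where repeated sequence collects reads. The DRG holds the cell bodies of sensory neurons with satellite glia, Schwann cells, fibroblasts and immune cells. CCI is a model of neuropathic pain and CFA a model of inflammatory pain. ATAC-seq of whole ganglia averages over all of these cells, so a change of cell makeup and a change of chromatin within a cell type cannot be told apart. RNA-seq of 2 CFA libraries, with 10520647 and 28825688 counts on genes, held the sensory neuron genes Nefl, at 9561 and 9790 CPM (counts scaled to the library total), and Scn10a, at 541 and 578. It also held Mbp of myelinating glia, at 2089 and 1981 CPM, and Col1a1 of fibroblasts, at 524 and 501.

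The coverage came in 2 tables, each with 1 pain model and the same 3 naïve libraries. Values were compared only within a table, since each was normalised by itself, and all columns of a table had nearly the same distribution. A value therefore tells where a region stands relative to the other regions of its library. Regions with equal values form ties, and the number of distinct values in a library was 922 to 1234 in naïve, 907 to 1207 in CFA and 544 to 919 in CCI. It was lowest in CCI replicates 3, 6 and 2, at 544, 552 and 602. Sequencing took 1 run for CCI replicates 3 to 6 and 2 runs for every other library. A pair of CFA columns could not be matched to a replicate number, and these are named CFA a and CFA b.

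The wide regions made up 2.84% of the autosomal regions and held 7.75% of their bases, with 2.79 megabases of accessible sequence against 33.3 megabases in the other 54259 regions. Their median width was 1670 bp, with quartiles of 1577 and 1848 bp, against a median of 536 bp in the other autosomal regions. They lay on every autosome. Their share of a chromosome's regions ran from 2.23% on chromosome 16, with 40 of 1793, to 3.55% on chromosome 1, with 239 of 6728. Chromosomes 10 and 17 were close to chromosome 1, at 3.54% each.

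Wide regions were no closer to their neighbours than other regions at the median. The nearest consensus region of any width lay 9.05 kb away at the median, against 8.43 kb for the other autosomal regions. Of the wide regions 193, or 12.2%, had a neighbour within 1 kb, against 15.03% of the others. A total of 1298 wide regions stood alone, with no other wide region within 50 kb, and 287, or 18.1%, had one. Groups of at least 3 numbered 23 and held 85 wide regions. The most crowded stretch, chr7:2100461-2228912 (rn6), held 9 wide regions in 128 kb.

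The widest region was chr17:11756636-11760696 (rn6), at 4060 bp. It was followed by chr2:161574589-161578303 at 3714 bp, chr9:12468941-12472492 at 3551 bp, chr18:41907819-41911294 at 3475 bp and chr9:8773581-8776905 at 3324 bp. All coordinates are those of the deposited tables, in rn6. The rn6 sequence and its gene annotation were not used here, so exon, intron and promoter positions and the bases of the regions are not given.

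In the naïve DRG the wide regions were among the most accessible of the regions measured. Their median naïve level was 8.15 in the CCI table (quartiles 7.52 and 8.68), against 5.40 in the other autosomal regions (quartiles 4.73 and 6.36). In the CFA table the medians were 8.73 and 5.65. The medians of the 3 naïve libraries lay between 8.14 and 8.15 in the CCI table and between 8.73 and 8.74 in the CFA table. All columns of a table have nearly the same distribution, so this closeness is partly built in and does not measure agreement between animals. No wide region fell below the median of the other autosomal regions in either table. Of the 558 autosomal regions in the top 1% of the naïve level, 293, or 52.5%, were wide, in both tables. Summed on the linear scale, the wide regions took 11.99% to 12.07% of the coverage of all autosomal regions in the naïve libraries of the CCI table.

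Much of this height came with width, because the coverage of a region sums over its length. Scaled per kb, the median naïve level of the wide regions was 7.37 in the CCI table against 6.40 in the others, a difference of 0.97 in place of 2.75. In the CFA table the difference was 1.29 per kb in place of 3.08. Across all 55844 autosomal regions the naïve level and the log2 width correlated with a Pearson r of 0.82 in both tables, and within the wide regions r was 0.16 in the CCI table and 0.15 in the CFA table. These are correlations across regions of the same libraries and are given as a description. The widths were called from the reads of these libraries, so a link between level and width is partly built in. Per kb the level did not go on rising with width. Its median in the CCI table was 7.40 in the 494 regions from 1500 to below 1600 bp, 7.19 in the 188 regions from 2000 to below 2500 bp and 7.16 in the 44 regions of at least 2500 bp.

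**Figure D1:**
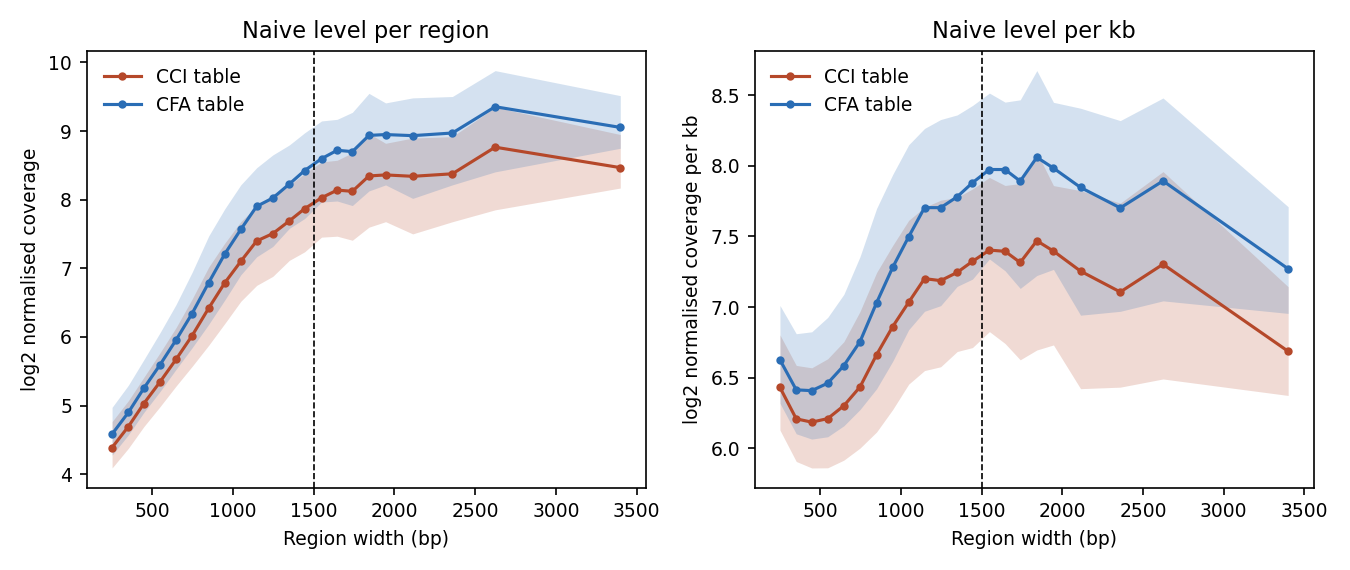
Naïve level of autosomal regions (log2 normalised coverage, left, and the same per kb, right) against region width in bp. Points are medians of width bins, shaded bands run from the lower to the upper quartile, colours mark the 2 tables, and the dashed line marks 1500 bp. The level per region rises steeply up to the line and flattens beyond it, and the level per kb levels off.

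The highest naïve value of a wide region was that of chr19:56337633-56339327, a region of 1694 bp. In the CCI table its naïve libraries read 12.16, 12.16 and 12.53, and the CCI libraries ran from 12.16 to 12.53 with a median of 12.53. The groups overlapped. In the CFA table its naïve libraries read 12.66, 12.66 and 12.80, and the CFA libraries ran from 12.66 to 12.80. The 4 next highest were chr4:146546922-146548846, chr1:56035439-56038570, chr1:99054719-99056995 and chr12:1509809-1511395, with naïve means of 11.42, 11.31, 11.31 and 11.12 in the CCI table. None of these 5 had a limma p below 0.001 in either comparison.

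At the low end stood chr15:11890-13510, whose naïve libraries read 6.19, 3.84 and 6.16 in the CCI table. Naïve replicate 2 was far below the other two, and this was also the wide region with the largest spread between naïve libraries, with an SD of 1.35. Its CCI libraries ran from 6.47 to 7.99 with a median of 7.11 and lay above all 3 naïve libraries, with a log2 difference of 1.72 ± 0.50 (SE) and a limma p of 0.00495. Without naïve replicate 2 the difference was 0.94. Next came chr14:15500343-15502180, with naïve values of 5.43, 6.41 and 4.87. Its CCI libraries spread most of all wide regions, with an SD of 2.25, from 1.58 in replicate 2 to 7.56 in replicate 3. The third lowest, chr12:21138246-21139938, read 5.64, 5.97 and 5.78 in the naïve libraries of the CCI table.

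Naïve libraries differed less in wide regions than in the others. The median SD between the 3 naïve libraries was 0.133 in wide regions and 0.203 in the other autosomal regions of the CCI table, and 0.137 and 0.221 in the CFA table. Between the 6 CCI libraries the median SD was 0.188 in wide and 0.324 in other regions, and between the 6 CFA libraries 0.122 and 0.242. For the naïve SD this order turned around once regions of like level were compared. With all autosomal regions divided into 10 equal bins of the naïve level, bin 10, the highest, held 1168 wide regions, and there the median naïve SD was 0.126 in wide and 0.111 in other regions of the CCI table. In bin 8, with 113 wide regions, it was 0.186 against 0.146. The CFA table gave 0.125 against 0.118 in its bin 10 and 0.210 against 0.165 in its bin 8. The SD between pain libraries did not turn in bin 10, at 0.164 in wide and 0.174 in other regions for CCI, and at 0.105 and 0.106 for CFA. It did turn in bins 7 to 9 of both tables. In bin 8 it was 0.432 in wide and 0.278 in other regions for CCI, and 0.228 and 0.185 for CFA. In bin 9 it was 0.278 and 0.235 for CCI, and 0.184 and 0.146 for CFA.

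**Figure D2:**
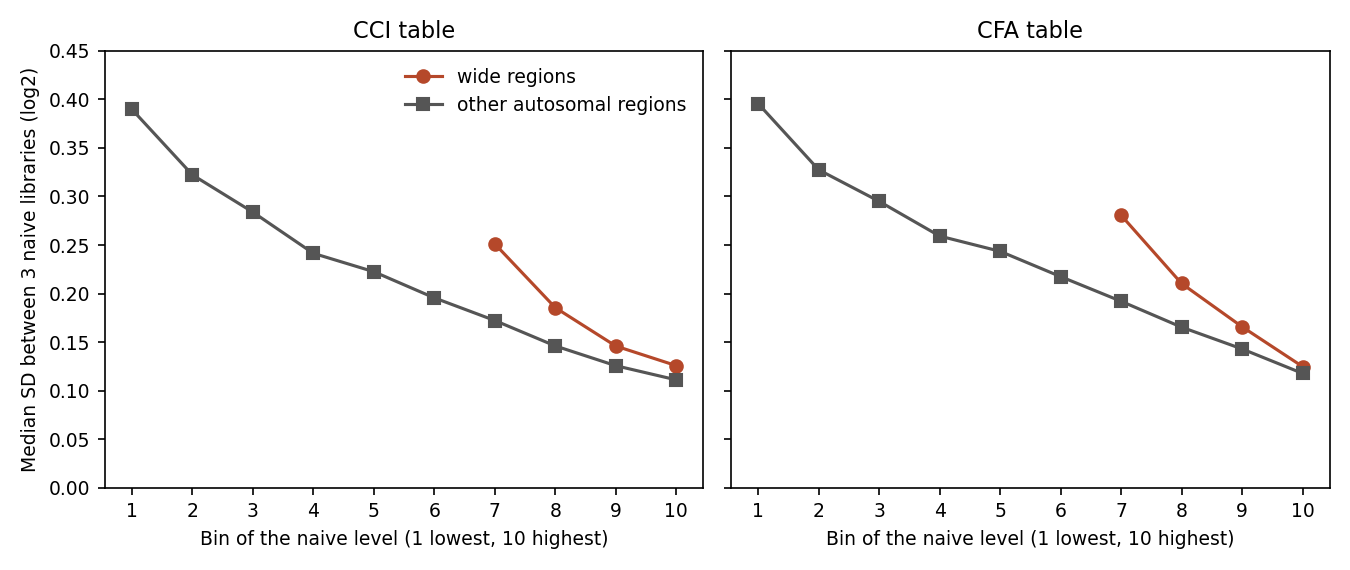
Median SD between the 3 naïve libraries (log2) in 10 bins of the naïve level of autosomal regions, with wide and other regions apart and 1 panel per table. Bins with fewer than 10 wide regions show the other regions alone. The spread falls as the level rises, and in bins 7 to 10 the wide regions lie above the others.

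The first comparison asked which wide regions changed accessibility after nerve injury. At an unadjusted limma p below 0.001, 16 wide regions gained and 7 lost accessibility after CCI. These 23 were 1.45% of the wide regions, while 0.91% of all 56810 regions passed (0.75% gained and 0.16% lost). No wide region passed a Benjamini-Hochberg adjusted p of 0.05, and the smallest limma adjusted p among the wide regions was 0.0761. At an unadjusted p below 0.05, 209 wide regions gained and 204 lost, or 13.2% and 12.9%, where 8.59% and 7.45% of all regions did. Among regions of like naïve level, the share in either direction was 23.0% in wide and 14.2% in other regions of bin 10. In bin 9 it was 29.8% and 17.4%, and in bin 8 42.5% and 17.3%. The naïve level that sets the bins also enters the fold change, so these shares are a description. All 6 CCI libraries lay above all 3 naïve libraries in 97 wide regions (6.12%, against 3.85% of all regions) and below them in 248 (15.6%, against 5.26%).

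Most wide regions were slightly lower after CCI and a smaller number were much higher. The median log2 fold change was -0.11, against -0.04 in the other autosomal regions and -0.04 over all regions. Of the wide regions 1001 of 1585 (63.2%) were at or below 0, and so were 55.1% of the other autosomal regions. At the same time 214 wide regions, 13.5%, had a log2 fold change above 0.5, against 9.12% of the other autosomal regions. The distribution had a second rise. In bins of 0.1 on the log2 scale, 12 wide regions lay from 0.5 to 0.6 and 13 to 39 in each of the next 7 bins, with the 39 in the bin from 1. In the other autosomal regions there were 1258 in the first of these bins and from 906 down to 165 in the next 7. Below -0.5 there were 70 wide regions, or 4.42%, against 5.69% of the others. Centring each library on the wide regions turned the 16 gained and 7 lost calls into 45 gained and 1 lost. The balance of the directions also moved when 1 library was left out. It was 88 gained and 4 lost without CCI replicate 5, and 6 and 4 without CCI replicate 2. What moved it was not tested. The count without 1 library ran from 1 without naïve replicate 1 to 92 without CCI replicate 5, and with the CCI libraries sequenced in 2 runs alone it was 1. That last fit held only 2 CCI and 3 naïve libraries, so fewer libraries and the number of runs cannot be told apart.

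**Figure D3:**
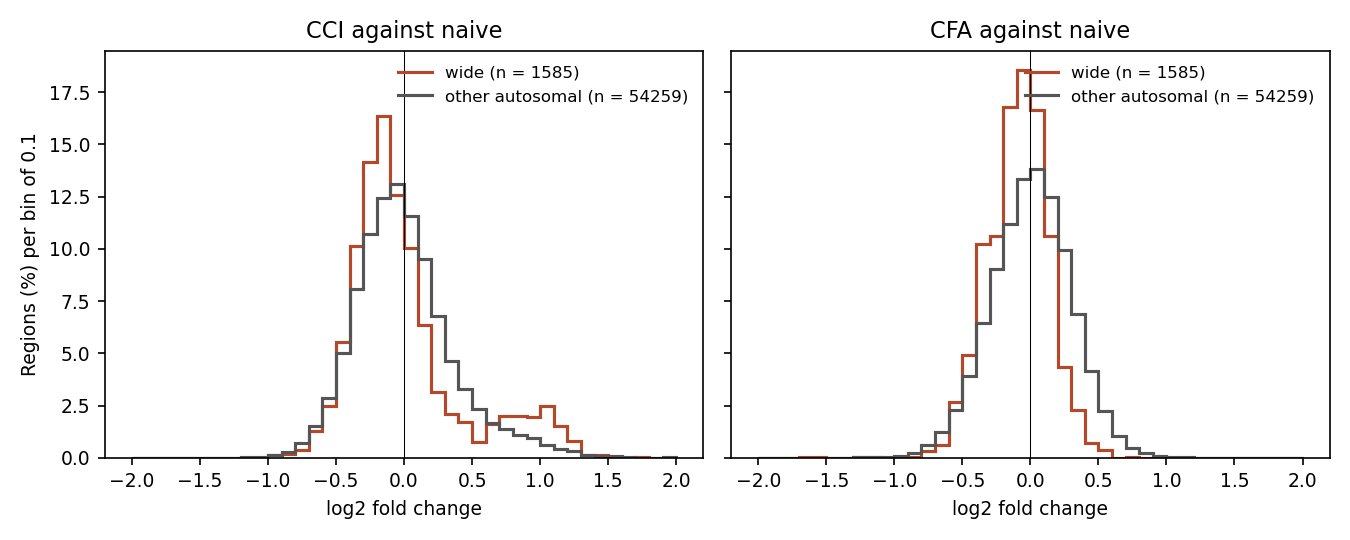
Distribution of the log2 fold change against naïve (horizontal axis) as the percentage of regions per bin of 0.1, for 1585 wide and 54259 other autosomal regions, after CCI (left) and CFA (right). After CCI the wide regions have a main peak below 0 and a second, small one near 1, and after CFA they have 1 peak.

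The 214 wide regions above 0.5 were picked by their CCI values minus the naïve mean, so both their CCI change and their naïve level are a description. Their median width was 1840 bp against 1659 bp in the other 1371 wide regions, and their median naïve level per kb was 6.33 against 7.48 in the CCI table. In the CFA libraries, which were not used to pick them, the medians per kb were 6.76 and 7.96. The nearest consensus region lay 3.76 kb away at the median, against 10.2 kb, and 37.4% of them had another wide region within 50 kb, against 15.1%. They were spread unevenly over the chromosomes. On chromosome 9, 27 of 81 wide regions belonged to them (33.3%), on chromosome 1, 50 of 239 (20.9%), on chromosome 10, 4 of 121 (3.31%), and on chromosome 4, 0 of 79.

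The 6 CCI libraries differed in these 214 regions. Their median difference from the naïve mean was 1.45 in CCI replicate 3, 1.38 in replicate 6, 1.17 in replicate 2 and 0.94 in replicate 4, but 0.41 in replicate 1 and 0.19 in replicate 5. Replicates 3, 6, 2 and 4 were also the CCI libraries with the fewest distinct values (544, 552, 602 and 684), and replicates 1 and 5 had 811 and 919. The naïve libraries showed a like order on a smaller scale, with -0.21 in replicate 1 and 0.22 in replicate 2, which had 1234 and 922 distinct values. The CFA libraries, which played no part in picking the regions, ran from -0.35 in CFA replicate 3 to 0.35 in CFA replicate 6, with 1207 and 907 distinct values, and lay at 0.22 in CFA b, which had 962. CFA a, replicate 4 and replicate 5 lay between, at -0.05, -0.07 and -0.16, with 1095, 1055 and 1051 distinct values. The part of this library property in the CCI change was not tested. The median CFA fold change of the 214 regions was -0.02.

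The CCI change went with how thinly a wide region was covered. Wide regions were divided into 5 equal bins by their coverage per kb in the 6 CFA libraries, which the CCI comparison does not use. In the lowest bin of 317 wide regions the median CCI fold change was 0.25, and 35.3% gained at p below 0.05 while 3.79% lost. In the next bin the median was -0.04, and in the top bin -0.17, with 4.10% gained and 19.9% lost. The other autosomal regions in the same ranges of coverage per kb had medians of -0.00084, -0.10, -0.12, -0.08 and -0.02 from the lowest to the top range. Of them 10.7% gained and 5.57% lost at p below 0.05 in the lowest range, and 7.40% and 6.41% in the top range. Only CCI replicate 5 was below 0 in the lowest bin of wide regions, at -0.08, while replicate 3 was highest at 0.58. Coverage per kb in the 6 CCI libraries, used in the same way for CFA, gave medians from -0.13 in the lowest to -0.03 in the top bin.

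**Figure D4:**
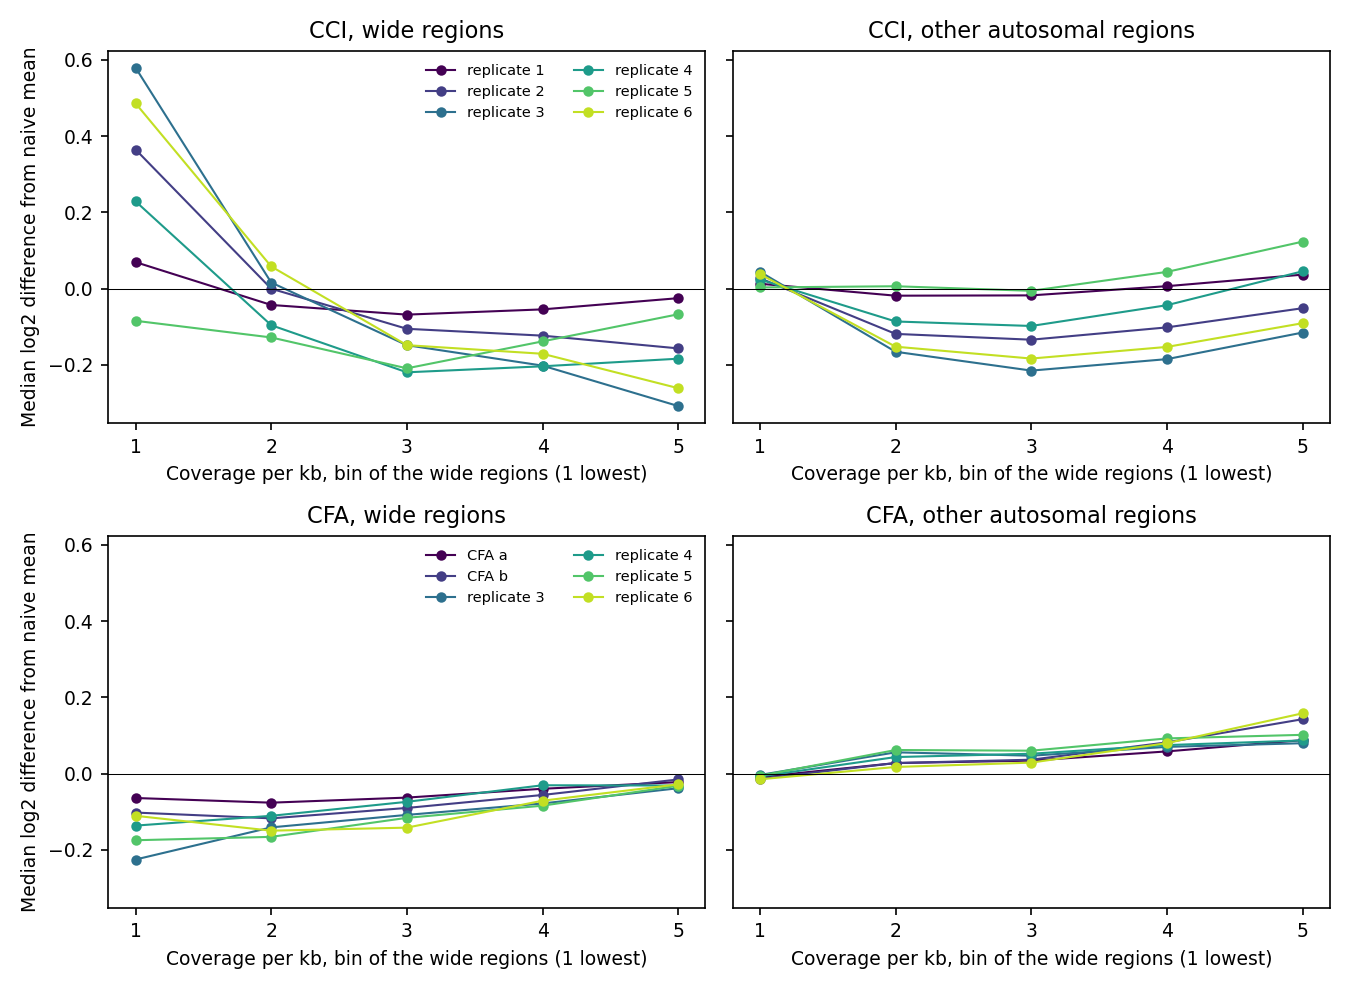
Median log2 difference from the naïve mean for each CCI library (top) and CFA library (bottom) in wide (left) and other autosomal regions (right), against ranges of coverage per kb that divide the wide regions into 5 equal bins. Coverage per kb was taken from the libraries of the other pain model. The CCI lines of wide regions fan out in the lowest bin, from -0.08 to 0.58, and the CFA lines stay between -0.23 and -0.02.

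Width itself showed the same split. The median CCI fold change was -0.12 in wide regions below 1600 bp, -0.13 from 1600 to below 1800 bp, -0.10 from 1800 to below 2000 bp, 0.02 from 2000 to below 2500 bp and 0.41 in the 44 regions of at least 2500 bp. Among those 44, 22 (50%) gained and 8 (18.2%) lost at p below 0.05, where 8.59% and 7.45% of all regions did. Regions of 1000 to below 1500 bp, just short of the limit, had a median of -0.08. The CFA fold change had medians between -0.09 and -0.05 in all of these wide classes.

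Of the 5 widest regions 2 gained accessibility after CCI at a limma p below 0.001, and all 5 had a log2 fold change above 0. The region chr2:161574589-161578303 read 7.99, 8.45 and 8.49 in the naïve libraries, and the CCI libraries ran from 8.82 to 9.87 with a median of 9.67. All CCI libraries were above all naïve ones, with a log2 fold change of 1.18 ± 0.24 (SE), a limma p of 0.000352, an adjusted p of 0.101 and an exact permutation p of 0.0119, the smallest that 84 splits can give. In chr18:41907819-41911294 the naïve values were 7.66, 8.54 and 7.92 and the CCI values 8.76 to 9.67 with a median of 9.48. The groups did not overlap, and the log2 fold change was 1.29 ± 0.24 with a limma p of 0.000175. The widest region of all, on chromosome 17, read 9.49, 9.49 and 9.66 in the naïve libraries and 9.49 in CCI replicate 1, with the other CCI libraries between 10.01 and 10.10. Its groups overlapped, and the log2 fold change of 0.42 ± 0.17 had a limma p of 0.0329. The groups also overlapped in chr9:12468941-12472492 and chr9:8773581-8776905. Their log2 fold changes were 0.96 ± 0.24 and 0.64 ± 0.24, with limma p values of 0.00158 and 0.0187.

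The 5 gained wide regions with the smallest p were chr1:180911483-180913055, chr1:181197894-181199843, the chromosome 18 region above, chr7:2174972-2177674 and chr1:180971079-180973106. The first read 7.87, 8.38 and 8.13 in the naïve libraries and from 8.87 to 9.90 with a median of 9.80 in the CCI libraries. It was the only one of the 16 gained regions that kept a p below 0.001 without each of the 9 libraries in turn, and its log2 fold change was 1.45 ± 0.24 (SE; limma p = 5.68e-05, adjusted p = 0.0761). The second, 1949 bp wide, read 8.04, 8.89 and 8.50 in naïve and 9.18 to 10.01 in CCI libraries, with a fold change of 1.33 ± 0.24 on the log2 scale. The region on chromosome 7 read 7.81, 8.62 and 8.42 in naïve and 8.89 to 9.80 in CCI libraries. The chromosome 1 region named last read 8.37, 9.49 and 9.03 in naïve and 9.77 to 10.27 in CCI libraries. In each of these 5 the CCI library with the lowest value was replicate 5, and no CCI library fell into the naïve range. In the CFA table all 5 overlapped with naïve, with log2 fold changes of 0.22, 0.27, 0.18, 0.18 and 0.15 in the order given.

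Of these 5 regions 3 lay on chromosome 1. The region on chromosome 7 belonged to the stretch with 9 wide regions. In that stretch the CCI fold change ran from 0.31 to 1.28 on the log2 scale, with a median of 1.10, and 2 of the 9 passed p below 0.001. The CFA fold change of the same 9 ran from -0.38 to 0.18 with a median of 0.01. A further group of 6 wide regions, chr1:54118357-54195221, had CCI fold changes of 0.644 to 1.003 on the log2 scale and none past the threshold. By contrast the 5 wide regions in chr1:55702070-55737241, with naïve means from 10.5 to 11.1, had CCI fold changes of 0.08 to 0.23.

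Over all 16 gained wide regions the log2 fold change ran from 1.11 to 1.45, and the groups did not overlap in any of them. These regions were picked by p on the same libraries, so their size of change and separation are a description. Their median width was 1904.5 bp and their median naïve level per kb 6.62. They lay on 8 chromosomes. With only the 2 CCI libraries that were sequenced in 2 runs, like the naïve ones, the same 16 had log2 fold changes of 0.92 to 1.44. These 2 libraries helped to pick the regions and lay above every naïve library in each, so the sign could not turn. With them alone 1 wide region passed p below 0.001.

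The 7 wide regions that lost accessibility after CCI had a median naïve level of 10.2 and a median level per kb of 9.36, read from the same naïve libraries that the losses were measured against. In the CFA libraries, which the CCI comparison does not use, their median per kb was 9.24, against 7.35 in the 16 gained regions and 7.83 in all wide regions. The range was wide, from 6.35 to 9.35, and the lowest of the 7 was the chromosome 3 region described last among the calls, with a naïve mean of 7.17. The strongest by p was chr8:102158885-102160751, which read 10.90, 10.29 and 10.29 in the naïve libraries and from 9.31 to 9.95 with a median of 9.42 in the CCI libraries. All CCI libraries were below all naïve ones, with a log2 fold change of -0.98 ± 0.20 (SE; limma p = 0.000335, adjusted p = 0.10002). Next were chr1:124814470-124817084, with naïve values of 11.11, 10.39 and 10.73 and CCI values of 9.51 to 10.13, and chr14:72379678-72381308, with 10.39, 9.82 and 10.10 against 9.04 to 9.53. Then came chr5:5465994-5468210, with 10.53, 9.89 and 10.05 against 9.14 to 9.56, and chr7:41113803-41115530, with 10.73, 10.01 and 10.12 against 9.28 to 9.69. In all 5 naïve replicate 1 read highest. The log2 fold changes of all 7 ran from -0.98 to -0.69 and the groups did not overlap, which is a description, since p on the same libraries picked them. With the CCI libraries sequenced in 2 runs alone the fold changes ran from -0.87 to -0.52. These libraries also took part in the picking, and with them alone 0 wide regions lost at p below 0.001.

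**Figure D5:**
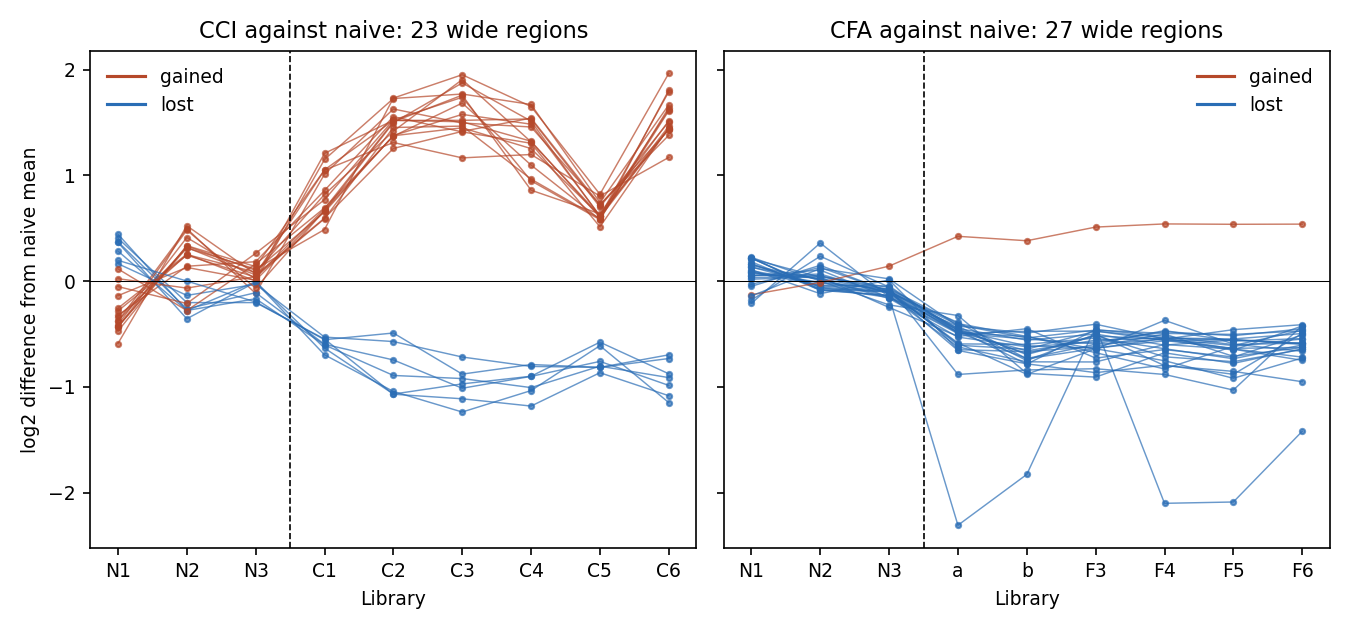
Log2 difference from the naïve mean in each library for the wide regions with a limma p below 0.001, after CCI (left, 23 regions) and CFA (right, 27 regions). Each line is 1 region, N1 to N3 are naïve libraries, C1 to C6 CCI replicates, a and b the unnumbered CFA libraries and F3 to F6 CFA replicates, and no region overlaps between the groups. The regions were picked by p on the libraries shown.

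The second comparison asked the same after hind paw inflammation. At a limma p below 0.001, 26 wide regions lost and 1 gained accessibility after CFA. These 27 were 1.70% of the wide regions, where 1.12% of all regions passed. Over all regions the directions were even, at 0.565% gained and 0.556% lost, and in the wide regions they were 0.0631% and 1.64%. A tilt to loss was also seen just short of the width limit. Of the 7684 other autosomal regions of 1000 to below 1500 bp, 28 gained and 95 lost. No wide region passed an adjusted p of 0.05, and the smallest limma adjusted p among the wide regions was 0.0858. At an unadjusted p below 0.05, 66 wide regions gained (4.16%, against 9.5% of all regions) and 331 lost (20.9%, against 9.45%). In the class of 1000 to below 1500 bp 8.45% gained and 16.6% lost. Among regions of like naïve level, wide regions did not pass p below 0.05 more often than others when both directions were pooled. The share in either direction was 25.7% in wide and 26.9% in other regions of bin 10, and 26.8% and 31.0% in bin 9. The tilt to lower values stayed there. In bin 10 the median CFA log2 fold change was -0.09 in wide and -0.02 in other regions. In bin 9 these medians were -0.07 and -0.01. All 6 CFA libraries lay above all naïve libraries in 76 wide regions (4.79%, against 5.39% of all regions) and below them in 321 (20.3%, against 5.65%).

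The wide regions as a whole were somewhat lower after CFA. Their median log2 fold change was -0.08, against 0.01 in the other autosomal regions and 0.01 over all regions, and 35.0% were above 0, against 51.4% of the others. This drop was seen in every CFA library. The library medians over wide regions lay between 8.61 and 8.66 in the CFA libraries and between 8.73 and 8.74 in the naïve ones. The wide regions took 11.9% to 12.3% of the summed linear coverage of autosomal regions in CFA libraries and 12.7% to 12.8% in naïve libraries. In the CCI table the shares were 11.2% to 12.2% in CCI and 11.99% to 12.07% in naïve libraries and overlapped. Since each column was brought to the same distribution, these are shifts relative to the other regions. Centring each library on the wide regions gave 6 gained and 11 lost in place of 1 and 26, with a median of 0.02. The count without 1 library ran from 7 without naïve replicate 2 to 24.

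After CFA 0 wide regions had a log2 fold change above 1, where 53 of all 56810 regions, 0.0933%, did. After CCI 81 wide regions, 5.11%, were above 1, against 1.81% of all regions. Above 0.5 there were 7 wide regions after CFA, 0.442%, against 4.19% of the other autosomal regions. Below -0.5 there were 62, or 3.91%, against 4.60%. The other autosomal regions of 1000 to below 1500 bp had a median CFA fold change of -0.05. Both comparisons use the same 3 naïve libraries, so their values are set side by side and not combined.

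The 5 lost wide regions with the smallest p after CFA were chr2:165486093-165487722, chr9:63638538-63640079, chr7:51352309-51353953, chr2:128462349-128464061 and chr18:6082091-6083681. The first read 7.90, 7.68 and 7.63 in the naïve libraries and from 6.82 to 7.15 in the CFA libraries. Its log2 fold change was -0.75 ± 0.12 (SE; limma p = 7.32e-05, adjusted p = 0.0858), with an exact permutation p of 0.0119. The second read 8.50, 8.45 and 8.33 in naïve and 7.55 to 7.93 in CFA libraries, a log2 fold change of -0.75 ± 0.12. It stood far from other open sites, with the nearest consensus region 259 kb away. The third read 8.14, 7.84 and 7.78 in naïve and 7.15 to 7.32 in CFA libraries.

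The fourth of these regions read 9.23, 9.01 and 9.14 in naïve libraries and from 8.41 to 8.62 in CFA libraries. The fifth read 9.33, 9.35 and 9.22 in naïve and 8.66 to 8.83 in CFA libraries, with a log2 fold change of -0.59 ± 0.10 (SE; limma p = 0.000133). In all 5 the CFA libraries lay below every naïve library, and each kept a p below 0.001 without each of the 9 libraries in turn. After CCI the log2 fold changes of the same 5 regions were -0.26, -0.16, -0.44, -0.48 and -0.43 in the order given, with limma p values from 0.0131 to 0.345.

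The single wide region that gained accessibility after CFA was chr10:17248924-17250463, at 1539 bp. It read 9.02, 9.14 and 9.29 in naïve and from 9.53 to 9.69 with a median of 9.68 in CFA libraries. The groups did not overlap, and the log2 fold change was 0.49 ± 0.11 (SE; limma p = 0.000949, adjusted p = 0.0879). This p rose above 0.001 without any single one of the 9 libraries. After CCI the same region had a log2 fold change of 0.13 with a limma p of 0.385.

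Over the 26 lost wide regions the log2 fold change ran from -1.70 to -0.48 with a median of -0.59, and the groups did not overlap in any of them. These regions too were picked by p on the same libraries, so this is a description. Their median width was 1633 bp, their median naïve level 8.58 and their median level per kb 7.92. The largest drop, named after its values were seen, was in chr17:89653728-89655260, which read 6.53, 7.10 and 6.59 in the naïve libraries. Its CFA libraries ran from 4.43 in CFA a to 6.31 in CFA replicate 3 with a median of 4.78. The fold change of -1.70 ± 0.36 (SE) had a limma p of 0.000578 and an adjusted p of 0.0858.

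One wide region had a limma p below 0.001 in both comparisons, chr3:97720973-97722482, at 1509 bp. The study gives Mpped2, a gene for a metallophosphoesterase, as its nearest gene. In the CCI table it read 7.36, 7.17 and 6.97 in naïve and from 6.29 to 6.68 with a median of 6.41 in CCI libraries. The log2 fold change was -0.71 ± 0.16 (SE; limma p = 0.000827, adjusted p = 0.107). In the CFA table it read 7.86, 7.64 and 7.41 in naïve and from 6.73 to 7.31 with a median of 6.91 in CFA libraries. There the log2 fold change was -0.70 ± 0.15 (SE; limma p = 0.000861, adjusted p = 0.0866). In both tables every pain library was below every naïve one, and the naïve libraries are the same 3 animals. Leaving out each library in turn kept the CCI call once in 9 refits and the CFA call in 2 of 9.

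Some wide regions varied strongly within a group. In chr4:99899938-99902162 the CCI libraries ran from 4.53 in replicate 3 and 4.67 in replicate 6 to 7.79 in replicate 4, with an SD of 1.48, while the naïve libraries read 7.16, 6.63 and 7.28. In chr5:77660223-77661884 the CFA libraries ran from 4.74 in replicate 4 to 7.18 in replicate 3, with an SD of 0.94, all below the naïve values of 7.40, 7.84 and 7.62. The CCI libraries of that region ran from 5.80 to 8.70, on both sides of naïve. In chr1:97687947-97689678 CFA replicate 3 read 4.99 and the other 5 CFA libraries 6.81 to 7.35. In chr15:29647653-29649189 the naïve libraries themselves spread from 5.90 to 7.04.

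At the width limit, chr18:27557917-27559417 and chr2:185523752-185525252 were just inside at 1500 bp, with naïve means of 8.27 and 8.14 in the CCI table. Just outside at 1499 bp were chr14:114806852-114808351 and chr17:10463039-10464538, with naïve means of 6.71 and 9.02.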

How the data were processed

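The authors aligned ATAC-seq reads to rn6 with Bowtie2, removed duplicates, shifted reads for the transposase, downsampled each sample, called regions with MACS2, merged those into a consensus and counted its reads. The values they deposited are log2 normalised coverage, in which all columns of a table share nearly 1 distribution, a step the methods do not name. ATAC-seq depth cannot be read from these values. The authors deposited RNA-seq as a raw count per Ensembl gene, used here only to check the tissue. Every deposited per-sample column was used.

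Each region was fitted with limma 3.58.1 in R 4.3.3 on all 56810 regions of a table, two-sided, with calls at the unadjusted p of 0.001 that the study used and p adjusted by Benjamini-Hochberg. Named regions also had an exact permutation test (84 splits). Tables and plots used Python 3.11.15 with pandas 2.3.3.

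The regions and lists were chosen with earlier results of these data known. Named regions were the 5 widest, the 5 highest and 3 lowest by naïve mean, up to 5 smallest p per comparison and direction, the most variable, those at the width limit and the one tied to a gene by the study. The split at a fold change of 0.5, the bins of coverage per kb and the count of distinct values were chosen after seeing the data. Alternatives covered the variance model, the centring, the thresholds, the width limit, the runs, a replicate block and leaving out each library. Replicates are separate rats. Two-sided limma p-values set the difference between groups against the spread between rats, with the variance of a region drawn towards that of all regions.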

Additional observations from a re-analysis of the deposited data

Results flagged for a closer look

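In 76 groups of 6 libraries (the named wide regions and the library summaries, in each table) 1 library stood far from the others in 5 regions by Dixon's test, and chance flags about 1 group in 20. In chr17:11756636-11760696, CCI replicate 1 read 9.49 and the other 5 CCI libraries 10.01 to 10.10. In chr12:1509809-1511395, CCI replicate 2 read 11.59 and the others 11.05 to 11.21. In chr14:15500343-15502180, CCI replicate 2 read 1.58 and the others 5.44 to 7.56. In chr4:99899938-99902162, CFA replicate 3 read 6.81 and the others 7.81 to 8.15. In chr1:97687947-97689678, CFA replicate 3 read 4.99 and the others 6.81 to 7.35. The last 2 were named for their spread within the CFA or CCI group, and the third for its spread and its low naïve level.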

How the results depend on the processing

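The naïve level of the wide regions stayed above that of the others in every alternative tried, by 2.49 (CCI table) and 2.79 (CFA table) with a width of at least 1200 bp, by 2.95 and 3.29 with at least 2000 bp, by 2.49 and 2.71 as means and by 0.97 and 1.29 per kb. Without 1 naïve library it was 2.74 to 2.76 and 3.07 to 3.09, and the median naïve SD was 0.0911 to 0.136 and 0.0913 to 0.137. The counts of wide regions past p were far less steady, and where they moved the cause was not tested. The 23 calls after CCI became 180 (113 gained, 67 lost) with an intensity trend, 64 with array quality weights, 46 (45 gained, 1 lost) centred on wide regions, 1 with the libraries sequenced in 2 runs, 181 at p below 0.01 and 0 at an adjusted p below 0.05. With a width of at least 1200 or 2000 bp they were 42 and 9. They ran from 1 to 92 without single libraries, with 1 without naïve replicate 1, 5 without naïve replicate 3, and 45, 10, 8, 7, 92 and 7 without CCI replicates 1 to 6 in order. The median CCI fold change of -0.11 became 0.0603 with a width of at least 2000 bp, so its direction turned there, and -0.0477 with the libraries sequenced in 2 runs, and was -0.13 to -0.09 without single libraries. The 27 calls after CFA became 252 (37 gained, 215 lost) with an intensity trend, 17 (6 gained, 11 lost) centred on wide regions, 47 with low regions removed, 160 at p below 0.01 and 0 at an adjusted p below 0.05. With a width of at least 1200 or 2000 bp they were 80 and 3. They ran from 7 to 24 without single libraries, with 8 and 7 without naïve replicates 1 and 2, 15 without CFA b, and 16, 15 and 12 without CFA replicates 3, 4 and 5. The median CFA fold change of -0.08 turned to 0.0236 centred on wide regions and was -0.09 to -0.07 without single libraries. Same-numbered CCI and naïve libraries did not deviate together (r = -0.06, 0.07 and -0.03 across 56810 regions), so the replicate block has no pairing behind it. With the replicate block 30 wide regions gained and 0 lost after CCI at a limma p below 0.001. No paired analysis was possible for CFA because only 1 of its numbered columns shares a number with naïve. Of 20 named results past the threshold refitted in 304 fits, 212 kept their side and direction, 92 kept the direction alone and 0 turned. Most of these fits could not turn a result. The groups did not overlap, so leaving out libraries kept the sign, and the intensity trend and removing low regions kept the fold change. Calls kept were 1 of 12 with the libraries sequenced in 2 runs, 5 of 12 with the replicate block and 6 of 20 without naïve replicate 1. With the intensity trend 20 of 20 were kept.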
